A study of Mus musculus with 491 samples.

Results

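Neural tube progenitor-like cells with high Top2a were compared with cells of the same kind with low Top2a, in single-cell RNA-seq of otic vesicle and periotic tissue from E10.5 mouse embryos of the genotype Pax2-Cre/+;Ai14-tdTomato/+. In these embryos Cre from the Pax2 transgene switches on the tdTomato reporter, and all cells analysed, in every class, were sorted as tdTomato+. The sort therefore kept cells that had expressed Pax2-Cre or descended from such cells, and not the whole of the neural tube. Each of the 491 samples is 1 cell, with 237 cells in replicate 1 (plates 1 to 3) and 254 in replicate 2 (plates 4 to 6). The labels do not say what a replicate stands for, so the 2 sets of plates may be technical replicates. With the replicate as a block, p-values measure how unevenly classes of cell differed between these 2 sets. That spread was pooled over 8 classes, most of them of other kinds of cell.

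Levels are given as log2(FPKM + 1). Cells were selected on Fabp7 of at least 5 with Epcam under 5, Stmn2 under 5, Sox10 under 3 and Csf1r under 1, which 111 of the 491 cells met, 48 in replicate 1 and 63 in replicate 2. Of these, 78 cells had Top2a of at least 4 (32 and 46 in replicates 1 and 2), 21 had Top2a under 1 (14 and 7) and 12 lay in between (2 and 10). The 99 cells of the first 2 classes are called Top2a-high and Top2a-low here. These values chose the cells and are a description only. The Top2a-high cells nearest the limit were at Top2a levels of 4.0, 4.27 and 4.33, and the nearest cells below it were at 3.45, 3.74 and 3.84. Of the 21 Top2a-low cells, 19 were listed at 0 and the others were at 0.34 and 0.35, with the next cells above the limit at 1.01, 1.13 and 1.19.

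The neural tube at this stage is a layer of progenitors that divide at its inner surface and give rise to neurons that leave the cell cycle. Fabp7 encodes a fatty acid binding protein of neural progenitors and radial glia. Top2a encodes the topoisomerase that untangles replicated DNA, and its transcript is known to build up through S phase and to peak in G2 and mitosis, so a cell in G1 can hold little of it and still be dividing. The regulated genes of the cycle come in waves, with replication genes before the mitotic kinases, the kinetochore (which ties chromosomes to the spindle) and the machinery of cytokinesis.

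The progenitor name held for some of its markers more than for others, and Fabp7 alone of them was part of the selection. Each Top2a-high and Top2a-low cell had at least 3 of 10 neural tube progenitor markers at an FPKM of at least 1, the limit at which a gene is called found here, and both classes had a median of 7. That minimum was also met by 46 of 52 Top2a-high otic epithelium-like cells and by 35 of 52 Top2a-low neuron-like cells (Stmn2 of at least 5), with a median of 3 in both. Sox2, a transcription factor of neural progenitors, was found in 69 of 78 Top2a-high and 16 of 21 Top2a-low cells, and Pax6 in 51 and 15. Vim was found in every cell of both classes, whereas Sox1 was found in 30 and 4 cells and Zic1 in 21 and 2. Macrophage markers were all listed at 0 in Top2a-low cells. At least 3 of 8 surface ectoderm markers were found in 21 Top2a-high and 3 Top2a-low cells, and 1 Top2a-low cell held 7 of the 8. At least 3 of 10 neuron markers were found in 36 and 9 cells. At least 3 markers of mesenchyme were found in 3 Top2a-high cells and of neural crest or glial precursors in 1 Top2a-low cell. The counts without the cells of each of these groups are given with the main counts. At least 3 of 7 placodal neuroblast markers were found in 10 Top2a-high and 3 Top2a-low cells, and no fit was made without those cells.

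The name non-cycling held less well. Mki67, the proliferation marker Ki-67, was found in 62 of 78 Top2a-high cells and in 5 of 21 Top2a-low cells (23.8%, exact Clopper-Pearson 95% interval 8.22 to 47.2). Pcna, the sliding clamp of DNA polymerase, was found in all 78 Top2a-high cells and in 16 of 21 Top2a-low cells, and at least 10 of 47 replication genes were found in 18 of the 21. The intervals cover the sampling of cells only. Top2a-low cells are therefore named by their rule and not as cells out of the cycle.

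Depth in reads is unknown, because the deposited values are FPKM. Top2a-high cells had a median of 4419.5 genes found (range 2980 to 6087) and Top2a-low cells 3663 (range 2643 to 4560), and the medians were 4233 and 3628 in replicate 1 and 4535.5 and 3861 in replicate 2. Wells, most of them on the same plate, were also linked in pairs that shared rare transcripts, and 337 of the 491 cells had such a source well, with a median of 4.88% of the level in the source. A source well existed for 53 of 78 Top2a-high cells and for 11 of 21 Top2a-low cells. The correction for this transfer only removes values, so it could not raise Top2a in any cell. A Top2a-low cell could leave its class only if its Fabp7 fell below the limit. All 21 stayed Top2a-low, which is therefore no test of that class. Of 78 Top2a-high cells, 71 stayed Top2a-high with corrected values, 4 became Top2a-low and 3 left the selection.

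Of 10236 genes tested, 123 were higher in Top2a-high cells (1.2% of the genes tested) and 8 were lower (0.0782%), at an adjusted p under 0.05 by limma with Benjamini-Hochberg adjustment over all 10236 genes. The fit used the mean level of each class in each replicate, so n = 2. Its spread was pooled over 8 classes of cell, with 7 residual degrees of freedom. On the 4 means of Top2a-high and Top2a-low cells alone, 13 genes were higher and 0 lower. All 123 genes had the same sign in both replicates, and 111 of them had it in all 5 plates that held enough cells of both classes. Among the genes called higher were 25 of the spindle and cytokinesis, 18 mitotic kinases and their partners, 10 of the kinetochore, 9 of replication and 6 of chromatin and condensin, and 54 lay in no list. Genes that vary with Top2a from cell to cell are bound to differ between classes made on Top2a, which is not allowed for in the p-values. Across all tested genes the median difference was 0.17 and 65.7% of genes lay above 0, beside the larger number of genes found in Top2a-high cells. With levels adjusted for the number of genes found per cell, 61 genes were higher and 10 lower. With Top2a-high cells limited to the range of genes found in Top2a-low cells, 64 were higher and 5 lower, 63 of them among the 123.

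The counts rested on few means. Without the replicate 1 mean of Top2a-high cells 33 genes were higher and none lower, and without that of replicate 2 the counts were 12 and 0. Without the replicate 1 mean of Top2a-low cells 199 were higher and 75 lower, and without that of replicate 2, which is made from 7 cells, 52 and 2. Without cells that held at least 3 markers of endothelium, macrophages, mesenchyme or neural crest the counts were 96 and 2. That setting took such cells from every class in the fit. Neural crest markers alone took out 13 of 52 Top2a-high and 12 of 27 Top2a-low otic epithelium-like cells. The counts were 143 and 13 without selected cells of 3 or more otic or surface ectoderm markers. Without cells of 3 or more neuron markers, which left 9 and 3 Top2a-low cells in replicates 1 and 2, they were 39 and 5, with 37 of the 123 genes still called. In cells without a source well, of which 10 were Top2a-low, 62 genes were higher and 4 lower. Values corrected for transfer gave 209 and 15 with the cells selected again on them, so the classes held other cells. With the classes as reported, the corrected values gave 97 and 7. All 123 genes kept their direction in each setting in which they were tested.

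**Figure D1:**
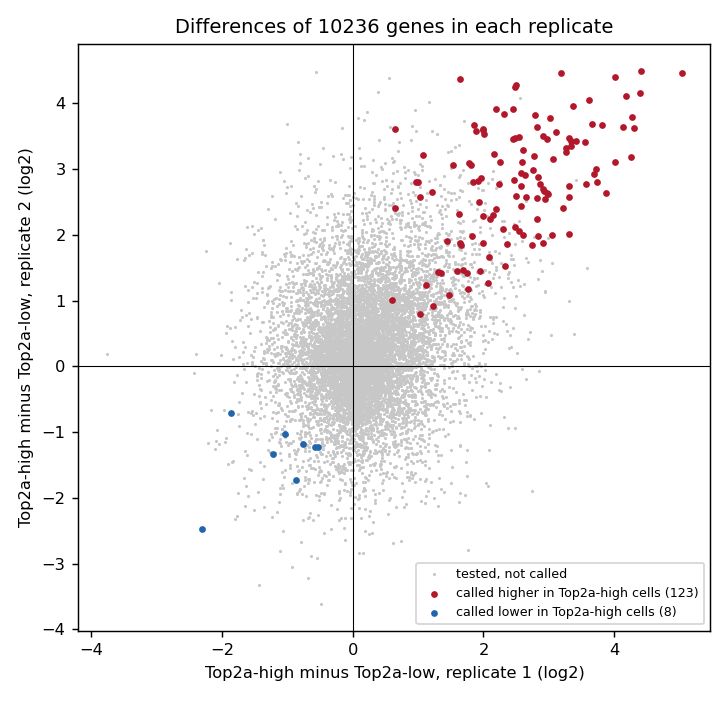
Difference in mean log2(FPKM + 1) between Top2a-high and Top2a-low cells in replicate 1 (horizontal axis) and replicate 2 (vertical axis), with 1 point per tested gene, 123 genes called higher in red and 8 called lower in blue. The red points lie at the upper right and the blue points at the lower left, so each called gene had the same sign in both replicates.

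The largest difference was in a gene of the last steps of division. Prc1 (chromosome 7, 80294450 to 80316259, GRCm38), which bundles the microtubules of the spindle midzone, was found in 65 of 78 Top2a-high cells, with a median level of 6.26 and a highest level of 8.96. It was found in 1 of 21 Top2a-low cells, at 5.34. Its mean levels in Top2a-high cells were 5.03 and 5.23 in replicates 1 and 2, against 0 and 0.76 in Top2a-low cells, a difference of 4.75 (SE 0.52, n = 2, adjusted p = 0.000324 by limma). The other Top2a-low cells lay with the Top2a-high cells in which Prc1 was not found, and that 1 cell lay within the range of the rest. Ect2, the exchange factor that starts the contractile ring, was found in 62 Top2a-high and 2 Top2a-low cells, with a difference of 3.88 (SE 0.57, adjusted p = 0.00184 by limma). Nusap1, which bundles spindle microtubules near chromosomes, was found in 60 and 3 cells, with a difference of 3.84. Depdc1b was found in 33 and 1. Of 37 tested spindle and cytokinesis genes, 25 were called higher and none lower, with a median difference of 2.39 beside 0.17 over all genes.

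**Figure D2:**
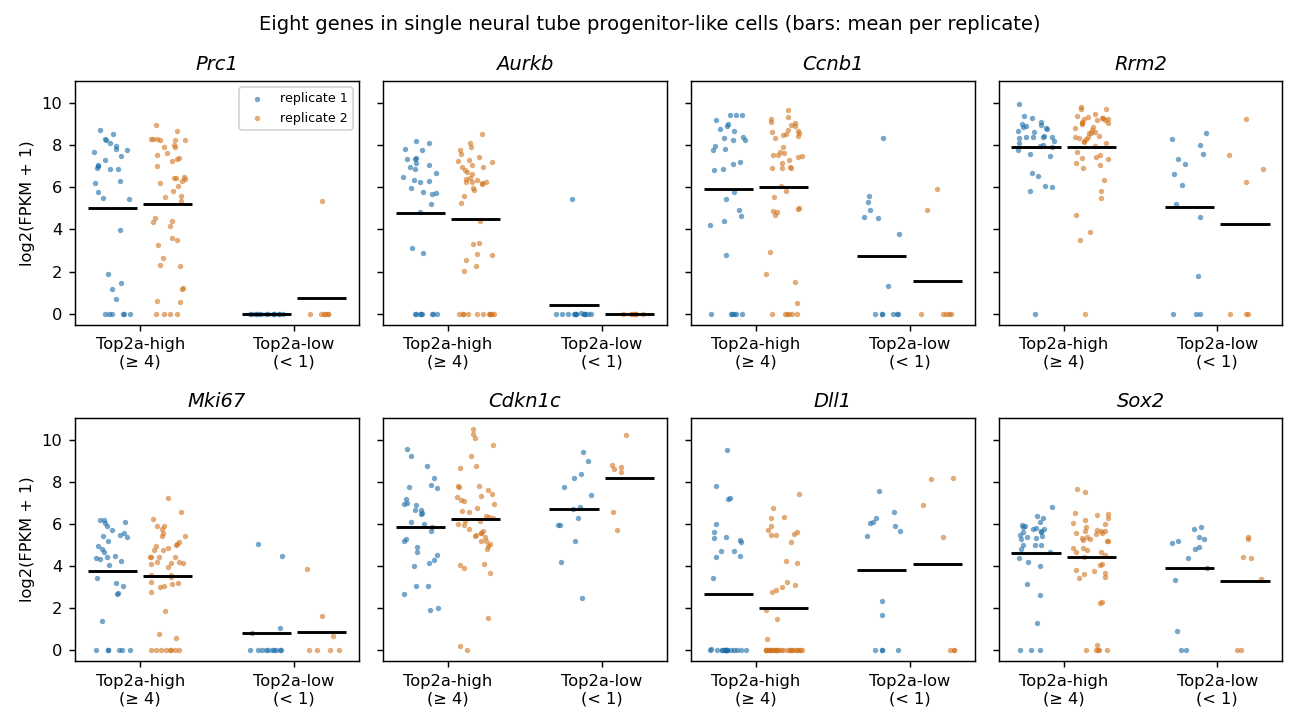
Level of 8 genes in single cells, in log2(FPKM + 1), for Top2a-high and Top2a-low cells of replicate 1 (blue) and replicate 2 (orange), with bars at the mean of each replicate. Prc1 and Aurkb were each found in 1 Top2a-low cell, Ccnb1 and Rrm2 were found in 10 and 15, and Cdkn1c was found in all 21.

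Mitotic kinases and their partners differed in the same way. Aurkb (chromosome 11, 69045647 to 69051664), the kinase of the chromosomal passenger complex, had mean levels of 4.79 and 4.5 in Top2a-high cells of replicates 1 and 2, against 0.39 and 0 in Top2a-low cells. The difference was 4.45 (SE 0.50, adjusted p = 0.000324 by limma), and Aurkb was found in 59 of 78 and 1 of 21 cells. Plk1, a kinase needed from mitotic entry to cytokinesis, had means of 4.4 and 4.15 in Top2a-high cells and was listed at 0 in all 21 Top2a-low cells, a count that allows a share of up to 16.1% (exact Clopper-Pearson 95% interval, adjusted p of the difference = 0.00101 by limma). Ube2c, the ubiquitin-conjugating enzyme of the anaphase-promoting complex, was found in 63 and 8 cells (difference 4.03, SE 0.52). Ccnb1, the cyclin B1 that drives mitotic entry with Cdk1, was found in 65 and 10 cells (difference 3.83, SE 0.56). Pbk, a mitotic kinase, was found in 68 and 9 cells (difference 3.75, SE 0.71), and its call was lost without each of the 4 class means in turn. Cks1b, a small Cdk-binding protein, was found in every Top2a-high cell and in 16 of 21 Top2a-low cells, and its difference of 2.5 (SE 0.36) came on top of a high level in both classes, with Top2a-low means of 5.25 and 5.34. Of 24 tested genes of this list, 18 were called higher, with a median difference of 2.92.

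The kinetochore and centromere list had 25 tested genes of 31, of which 10 were called higher, and the median difference was 1.87. Spc25, a subunit of the outer kinetochore Ndc80 complex, was found in 62 Top2a-high and 6 Top2a-low cells (difference 4.2, SE 0.61, adjusted p = 0.00183 by limma). Birc5, the survivin subunit of the passenger complex, was found in 75 and 10 cells (difference 3.96, SE 0.63). Its call was lost without either mean of the Top2a-high cells. Cenpf, a large protein of the outer kinetochore, was found in 65 and 3 cells, and Ska1, which couples kinetochores to microtubule ends, in 45 and 1. All 25 genes had a difference above 0.

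Condensin genes stood out in the chromatin list. Smc4, a core subunit of condensin, was found in 74 Top2a-high and 9 Top2a-low cells, with mean levels of 6.53 and 6.01 against 2.28 and 2.82 (difference 3.72, SE 0.48, adjusted p = 0.000843 by limma). Smc2, its partner, had a difference of 3.27, and the regulatory subunits Ncapg and Ncaph had 3.42 and 3.11. Mki67 had a difference of 2.80 (SE 0.53). Of 18 tested genes, 6 were called higher, with a median difference of 1.65. The list of recombination and repair genes had 1 gene of 18 called, Rad51ap1, which acts in recombination (difference 2.37, SE 0.53, adjusted p = 0.032 by limma), whose call was lost in 13 other settings. All 18 genes of that list had a difference above 0, with a median of 1.13.

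**Figure D3:**
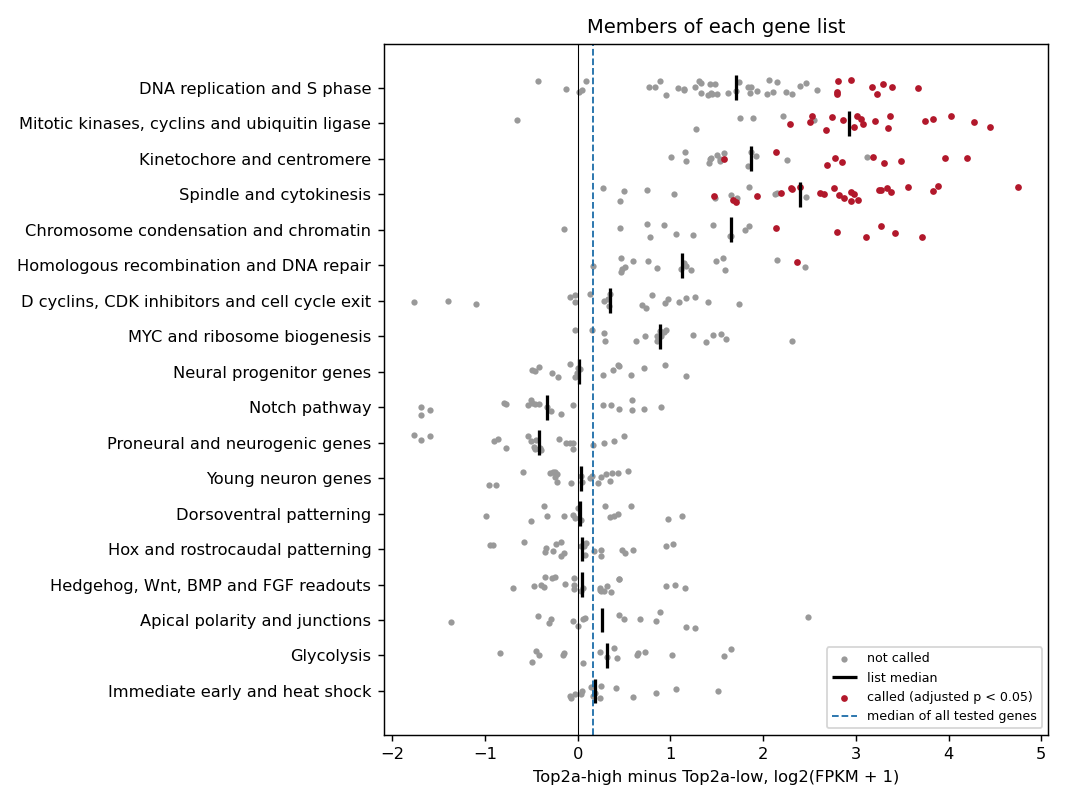
Difference between Top2a-high and Top2a-low cells for each member of 18 gene lists (points; red where called at an adjusted p under 0.05), with the list median as a black bar and the median of all tested genes, 0.17, as a dashed line. The medians of the mitotic kinase, spindle and kinetochore lists were 2.92, 2.39 and 1.87, and those of the Notch and proneural lists were -0.33 and -0.42.

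A smaller share of the replication genes was called than of the mitotic, kinetochore and spindle lists. Of 47 genes of DNA replication and S phase, 9 were called higher and none lower. A difference above 0 was held by 45 of the 47, and the median difference was 1.71. Rrm2, the small subunit of ribonucleotide reductase, was found in 76 Top2a-high and 15 Top2a-low cells. Its mean levels were 7.90 and 7.91 in Top2a-high and 5.08 and 4.27 in Top2a-low cells (difference 3.23, SE 0.41, adjusted p = 0.000843 by limma), so most Top2a-low cells also held it. Slbp, which binds the stem-loop of histone mRNAs, was found in the same numbers of cells and had a difference of 2.80 (SE 0.39). Rfc4, a subunit of the clamp loader, had a difference of 3.17 and Fen1, the flap endonuclease, 2.81. The helicase subunit Mcm2, named after its values were seen, was found in all 78 and all 21 cells, with a difference of 0.04. Pcna, also named afterwards, had mean levels of 6.71 and 6.75 in Top2a-high and 4.43 and 4.55 in Top2a-low cells and was not called (difference 2.24, SE 0.55, adjusted p = 0.0584 by limma). Replication-dependent histones of the list had no usable row.

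Of the 123 genes called higher, 69 lay in the 6 cell cycle lists, which hold 169 tested genes, and 54 lay in no list. Asf1b, a histone chaperone that works at replication forks, had the largest difference outside the lists. Its mean levels were 5.23 and 5.03 in Top2a-high cells and 1.05 and 0.92 in Top2a-low cells (difference 4.14, SE 0.53, adjusted p = 0.000843 by limma), and it was found in 66 of 78 and 5 of 21 cells. The calls of Prc1 and Aurkb were kept in every other setting tried, and those of Asf1b and Ube2c in all but the 1 without cells of neuron markers (adjusted p = 0.0618 and 0.219 by limma). Foxm1, a transcription factor of mitotic genes that was named after its values were seen, was found in 50 and 1 cells (difference 2.3, SE 0.41).

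Promoters of the genes called higher were read because these genes moved together. The cell cycle homology region, or CHR, is a short element at which the DREAM and MuvB complexes are known to bind, often with CCAAT boxes, the sites of NF-Y, upstream of it. The letters TTTGAA for the CHR and CCAAT for the box were searched on both strands from 250 bases before to 50 after each RefSeq start (GRCm38.p6), over all starts of a gene. Of 99 genes called higher that matched a promoter by symbol, 48 held TTTGAA (48.5%), against 1102 of 8174 tested genes with a promoter (13.5%) and 17.9% of all 32851 promoters in the table. CCAAT was held by 68.7% of the genes called higher, 43.9% of all tested genes and 37.4% of all promoters, and both motifs by 36.4% of the genes called higher and 6.80% of tested genes. The split followed the gene lists: TTTGAA was held by 43 of 72 mitotic genes (59.7%) and by 5 of 38 replication genes (13.2%), whereas CCAAT was held by 72.2% and 60.5%. Of the 8 genes called lower, 4 had a promoter in the table, of which 2 held TTTGAA and 3 held CCAAT. A match is a description of letters and not of binding.

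The 120 bases before the most upstream RefSeq start are shown for the 3 of the 12 genes with the largest differences (9 of which had a promoter in the table) that held both motifs there, and for Rrm2 as a replication gene. CHR and CCAAT letters on either strand are in capitals (TTCAAA and ATTGG are the antisense forms), and none of the matches overlap. Asf1b is at chr8:83955574-83955693 on the plus strand, Ube2c at chr2:164769809-164769928 on the plus strand, Ect2 at chr3:27153879-27153998 on the minus strand and Rrm2 at chr12:24708134-24708253 on the plus strand.
Asf1b: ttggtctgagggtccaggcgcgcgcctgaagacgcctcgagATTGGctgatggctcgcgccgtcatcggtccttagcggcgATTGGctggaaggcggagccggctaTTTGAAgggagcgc
Ube2c: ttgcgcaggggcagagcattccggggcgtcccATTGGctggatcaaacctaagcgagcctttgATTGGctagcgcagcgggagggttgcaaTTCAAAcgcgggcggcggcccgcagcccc
Ect2: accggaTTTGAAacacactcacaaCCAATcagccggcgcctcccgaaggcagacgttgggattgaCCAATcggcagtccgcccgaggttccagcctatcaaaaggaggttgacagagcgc
Rrm2: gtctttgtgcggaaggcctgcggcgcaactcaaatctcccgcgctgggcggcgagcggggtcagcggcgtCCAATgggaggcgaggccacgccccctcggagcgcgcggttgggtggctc
In Asf1b the CHR letters began 14 bases before the start and the CCAAT letters 39 and 79 bases before it. In Ube2c the CHR letters began 29 bases before the start and the CCAAT letters 57 and 88. Ect2 had them in the other order, with the CHR letters at 114 and the CCAAT letters at 96 and 55, and Rrm2 had CCAAT at 50 and no CHR letters in this window.

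Within the selected cells of both replicates together, the number of mitotic genes found rose with the level of Top2a. The ranges were made on Top2a, and genes that vary with it from cell to cell are bound to follow such an order. The counts are therefore a description only. Of 86 genes of the mitotic, kinetochore and spindle lists, Top2a-low cells had a median of 18 (range 5 to 44) and the 12 intermediate cells 33 (range 8 to 53). Cells at Top2a levels of 4 to 6 had a median of 52, those at 6 to 8 had 57, and those of 8 or more had 73 (range 55 to 81). Of 47 replication genes the medians were 23, 33.5, 37, 39 and 36 in the same order, so they levelled off where the mitotic genes went on. Over all genes, the median number found per cell in these ranges was 3663, 3809.5, 4244, 4482 and 4472, and its part in this order was not tested. In replicate 1 the cells at 6 to 8 had a median of 38 mitotic genes, below the 54 of those at 4 to 6.

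**Figure D4:**
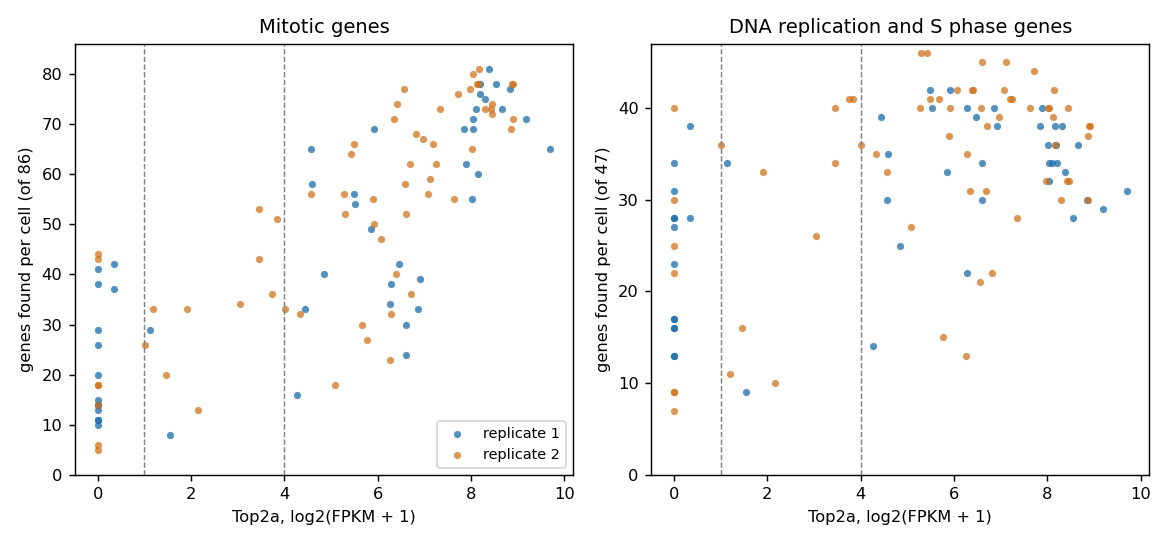
Number of genes found in each of the 111 selected cells against the Top2a level in log2(FPKM + 1), for 86 mitotic genes (left) and 47 replication genes (right), coloured by replicate, with dashed lines at the limits of 1 and 4. Mitotic genes reached 55 to 81 per cell at Top2a of 8 or more, and replication genes had medians of 37, 39 and 36 in the 3 ranges above 4.

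The classes overlapped in the number of mitotic genes found, and the overlap differed between cells with and without a source well. Of 78 Top2a-high cells, 19 had no more mitotic genes than the richest Top2a-low cell, and 11 of 21 Top2a-low cells had at least as many as the poorest Top2a-high cell. The 11 Top2a-low cells with a source well had a median of 37 mitotic genes (range 15 to 44), and the 10 without one had 12 (range 5 to 18). After correction for transfer the former fell to a median of 25. The 53 Top2a-high cells with a source well also fell, from a median of 64 to 52. The correction only removes values, so these counts could not rise. How much of either fall was due to transfer was not tested. The 25 Top2a-high cells without a source well had a median of 62 and a lowest count of 23. In these few cells without a source well the classes therefore did not overlap. Over all genes, Top2a-high cells with and without a source well had medians of 4588 and 3965 genes found. In Top2a-low cells these medians were 3940 and 3388.5, and their part in the mitotic counts was not tested. Of the 12 genes with the largest differences, Prc1, Aurkb, Plk1, Asf1b, Ect2 and Nusap1 were found in none of the 10 Top2a-low cells without a source well, Spc25, Birc5 and Pbk in 1 each and Ube2c, Ccnb1 and Smc4 in 2 each. Of the replication genes, Rrm2 was found in 7, Fen1 and Pcna in 6, Slbp in 4 and Rfc4 in 3 of them. Mki67 was found in 1 of these 10 cells, beside 5 of all 21 Top2a-low cells.

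Genes that hold cells back from the cycle or lead them out of it were not called, where 1.2% of all tested genes were called higher and 0.0782% lower. Cdkn1c, the Cdk inhibitor p57, was found in all 21 Top2a-low cells and in 76 of 78 Top2a-high cells, with mean levels of 6.70 and 8.16 against 5.84 and 6.22 in replicates 1 and 2. The difference of -1.40 (SE 0.38) missed the threshold (adjusted p = 0.0871 by limma), and the levels of single cells overlapped widely. Cdkn1b, the inhibitor p27, was found in 20 Top2a-high cells and in none of the 21 Top2a-low cells, with a difference of 0.70 (adjusted p = 0.214), and Cdkn1a, the inhibitor p21, in 7 and none. The D cyclins Ccnd1 and Ccnd2, which carry cells through G1, had differences of 1.17 and 0.97 and were found in 14 and 20 of the 21 Top2a-low cells. The Ccnd1 difference was -0.02 in replicate 1 and 2.36 in replicate 2, and was above 0 in 3 of 5 plates. Ccnd1 was found in 12 of 14 Top2a-low cells of replicate 1 and in 2 of 7 of replicate 2. For Ccnd2 the differences were 0.33 and 1.61. No gene of the 21 tested in this list was called. Its differences ran from -1.76, which was below that of Cdkn1c, to 1.74, with a median of 0.34.

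Progenitor and patterning genes held no call. At the shares called over all tested genes, 1.2% higher and 0.0782% lower, lists of this size can be without a call. Their members went both ways, from -0.50 to 1.17 in the progenitor list and from -0.99 to 1.12 in the dorsoventral list, and the list medians of replicates 1 and 2 were of opposite sign (-0.26 and 0.23, and -0.25 and 0.43). The median difference was 0.01 over 18 neural progenitor genes, 0.02 over 16 dorsoventral patterning genes, 0.05 over 22 Hox and other rostrocaudal genes and 0.05 over 24 readouts of the Hedgehog, Wnt, BMP and FGF pathways. Sox2 had mean levels of 4.65 and 4.42 in Top2a-high and 3.92 and 3.27 in Top2a-low cells (difference 0.94, SE 0.67). Pax6, a patterning and progenitor factor, had means of 3.63 and 3.41 against 4.69 and 2.35, so the replicates differed in sign. Hes5, a target of Notch that keeps progenitors undifferentiated, had means of 6.27 and 7.24 against 7.42 and 7.08. The genes of lowest p in these lists were Cdh2, the N-cadherin of the neural epithelium (difference 1.17, adjusted p = 0.368 by limma), Zic5 (-0.99, 0.0842), Cyp26b1, which breaks down retinoic acid (-0.91, 0.151), and Tcf7l2, a Wnt effector (1.16, 0.45).

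Notch and proneural genes held no call either, beside 1.2% of all tested genes called higher and 0.0782% called lower. Of 23 proneural and neurogenic genes tested, 4 had a difference above 0, where 65.7% of all genes did, and the median was -0.42 (-0.24 in replicate 1 and -0.65 in replicate 2). The Notch list had 7 of 21 above 0 and a median of -0.33, but the medians within replicates 1 and 2 were -0.02 and -0.04. Dll1, the Notch ligand that newborn neurons display, was found in 14 of 21 Top2a-low cells, with a median level of 5.41, and in 35 of 78 Top2a-high cells, with a median of 0. Its means were 3.83 and 4.09 against 2.70 and 2.02 (difference -1.60, SE 0.53, adjusted p = 0.193 by limma), and it was lower in Top2a-high cells in 5 of 5 plates. Without cells of 3 or more neuron markers the Dll1 difference was -0.02. Dll3, a ligand-like protein of the same cells, had a difference of -1.69 (SE 0.49, adjusted p = 0.118) and was found in 9 and 23 cells. Neurog2, which commits progenitors to neurons, had a difference of -0.47. Young neuron genes had a median of 0.03, and Myt1, a neuronal transcription factor, had the lowest p there (-0.96, adjusted p = 0.102). Stmn2, which is part of the selection, was found below its limit in 6 of 21 Top2a-low and 8 of 78 Top2a-high cells.

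Growth and housekeeping lists held no call, beside the same shares of 1.2% and 0.0782% over all tested genes. The MYC and ribosome biogenesis list had 17 of 18 genes above 0 and a median of 0.89, led by Dkc1, which modifies ribosomal RNA (2.31, SE 0.59, adjusted p = 0.0647 by limma). Apical polarity genes had a median of 0.26, and Gpsm2, which orients the spindle, had a difference of 2.49 (SE 0.65, adjusted p = 0.0702). Glycolysis genes had a median of 0.32, with Ldha, lactate dehydrogenase, at 1.58 (adjusted p = 0.0601 by limma). The Ldha difference was 0.48 in replicate 1 and 2.69 in replicate 2, and was above 0 in 3 of 5 plates. Immediate early and heat shock genes had a median of 0.19, with Ier2 at 1.51 (adjusted p = 0.0858).

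The 8 genes called lower formed no list. Plin2 (chromosome 4, 86648386 to 86670060), which coats lipid droplets, was found in 17 of 21 Top2a-low cells, with a median level of 6.05, and in 38 of 78 Top2a-high cells, with a median of 0.82. Its means were 4.4 and 5.26 in Top2a-low and 2.1 and 2.78 in Top2a-high cells (difference -2.39, SE 0.57, adjusted p = 0.0459 by limma). It was lower in Top2a-high cells in 5 of 5 plates, but its call was lost in 15 other settings, among them each of the 4 that leave out a class mean. The Plin2 difference was -1.04 (adjusted p = 0.371 by limma) corrected for transfer, -2.38 (0.0646) so corrected with the classes as reported, and -0.67 (0.885) split by Mki67. In cells without a source well it was found in 8 of 10 Top2a-low and 9 of 25 Top2a-high cells. Of the others, BC024139 was found in 9 Top2a-low and 15 Top2a-high cells, Rhbdl3 in 7 and 7, and Cntnap2 in 6 and 4. The genes 2700069I18Rik and Gm10046 were found in 5 Top2a-low cells each, and in 8 and 6 Top2a-high cells. Adamts6, a secreted metalloprotease, was found in 8 Top2a-low and 6 Top2a-high cells (difference -1.28, SE 0.24, adjusted p = 0.00926), and its call was lost in 8 settings. Rhbdl3, BC024139, 2700069I18Rik, Cntnap2 and Gm10046 had differences of -0.90 to -1.30 and lost their calls in 10 to 16 settings. Zc3h7b, the eighth gene, was named after its values were seen (difference -0.87).

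The same comparison was made in otic epithelium-like cells, of which 52 were Top2a-high and 27 Top2a-low. There 84 genes were higher in Top2a-high cells (0.821% of genes tested) and 3 lower (0.0293%). Of the genes called higher, 60 were called in both kinds of cell, which is 48.8% of the 123 and 71.4% of the 84. An otic difference above 0 was held by 122 of the 123, and the median otic difference over all tested genes was 0.11. Both comparisons were split on Top2a and shared 1 estimate of the spread, so their overlap is not independent. Prc1 had an otic difference of 4.46 and Aurkb of 4.17. A test of the difference between the 2 comparisons called 0 of 10236 genes (0%) by limma, with 459 genes at an unadjusted p under 0.05 (4.48%) and a lowest adjusted p of 0.947. That test does not show that the genes responded alike. The gene of lowest p was Evc2, a regulator of Hedgehog signalling at the cilium, with a difference of 1.01 in neural tube progenitor-like cells and -1.44 in otic cells. Slbp had 2.80 and 0.70 (unadjusted p of the difference 0.00136, adjusted p 0.9996 by limma), and it was found in 15 of 21 Top2a-low neural tube progenitor-like cells and 25 of 27 Top2a-low otic cells. Dll1 had -1.60 and 0.54.

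**Figure D5:**
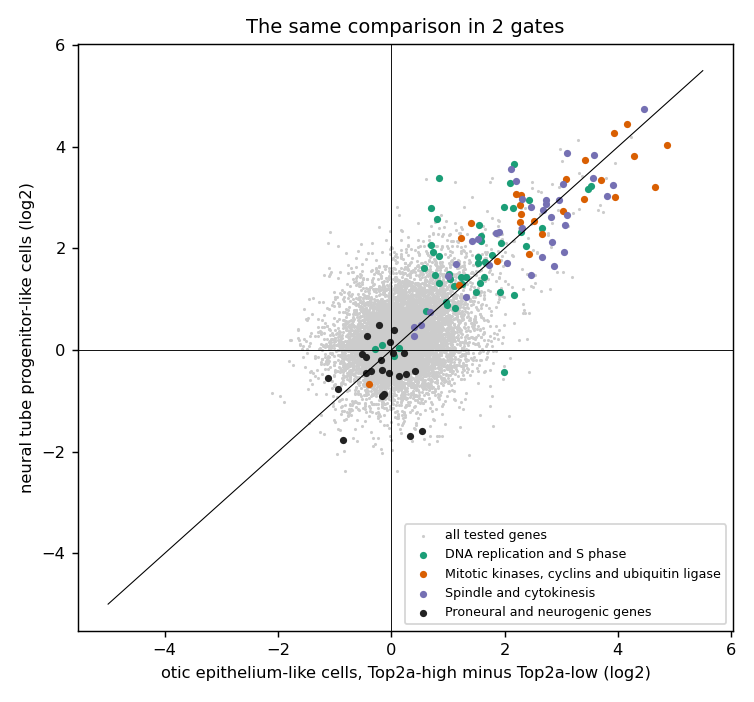
Difference between Top2a-high and Top2a-low cells in otic epithelium-like cells (horizontal axis) and in neural tube progenitor-like cells (vertical axis), in log2(FPKM + 1), with 1 point per tested gene, 4 lists in colour and the line of equal differences. Mitotic and spindle genes lie along the line at high values, with Prc1 at 4.46 and 4.75, and the proneural list has medians of -0.42 in neural tube progenitor-like and -0.16 in otic cells.

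Top2a-high cells made up 66.7% of the selected cells in replicate 1 (exact Clopper-Pearson 95% interval 51.6 to 79.6) and 73.0% in replicate 2 (60.3 to 83.4). Top2a-low cells made up 29.2% (17.0 to 44.1) and 11% (4.59 to 21.6), and cells in between 4.17% and 15.9%. By plate the share of Top2a-high cells ran from 57.1% to 89.5%, and plate 5 held no Top2a-low cell. Of the 6 intermediate cells with a source well, 5 had a source with Top2a of at least 4. In otic epithelium-like cells the share of Top2a-high cells was 57.4% and 53.2% in replicates 1 and 2. A split at the same limits by Mki67 in place of Top2a gave 50 high and 40 low cells, of which 45 and 16 were also Top2a-high and Top2a-low, and 102 genes higher and 5 lower.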

How the data were processed

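Per the submitters' processing notes, the authors used Bowtie, Bowtie2, TopHat and Cufflinks (with cutadapt, FastQC and SAMtools) on build mm10, with no versions given. The deposited values were read as log2(FPKM + 1), since 99.7% of values above 0 became numbers of 6 significant digits when converted back. Symbols and coordinates came from GENCODE M21 (GRCm38). Of 19659 rows, 19498 genes were used, leaving out 132 rows of repeated identifiers, 25 unmatched rows and 4 rows of shared symbols. Genes found in at least 5% of cells were tested, without the 6 genes of the selection.

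Levels were averaged per class and replicate (8 classes, 16 means) and fitted with class and replicate in limma 3.58.1 (R 4.3.3; empirical Bayes with trend, 7 residual degrees of freedom), called at an adjusted p under 0.05. A difference on the log2(FPKM + 1) scale understates the change of low genes. The fit was tested on simulated data. Transfer was corrected by setting values under 15% of the source well to 0. The cells, lists and named genes were chosen with earlier results of these data known. Named genes were the 12 largest called in each direction with the same sign in both replicates and in all but at most 1 plate, up to 4 called genes of each list or else the gene of lowest p, 12 fixed genes (1 of which is not reported here), and the gene of lowest p for the otic difference.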

Additional observations from a re-analysis of the deposited data

Results flagged for a closer look

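The median number of genes found in Top2a-low cells by plate held 1 value far from the others: it was 4291 in plate 4, against 3421 to 3663 in the other 4 plates with Top2a-low cells. Plate 4 held 3 Top2a-low cells, and the Top2a-high cells of the same plate had a median of 4269.5. Chance alone marks about 1 in 20 such groups.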

How the results depend on the processing

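The counts of genes higher and lower, 123 and 8 as reported, were 55 and 1 with the log of the mean FPKM, 185 and 5 with genes found in 20% of the selected cells, 13 and 0 with only the 4 means of these cells, 186 and 21 with plate means and the plate as a block, 208 and 12 weighted by cells, 209 and 15 corrected for transfer, 179 and 14 with Top2a of at least 3, and 102 and 5 split by Mki67. Without cells of other markers in any class they were 96 and 2, and 61 and 10 adjusted for genes found. Leaving out 1 class mean at a time gave 12 to 199 higher and 0 to 75 lower. Settings chosen after seeing the data gave 62 and 4 in cells without a source well (minimum of 2 cells per class and replicate), 64 and 5 within the range of genes found, 143 and 13 without cells of epithelial markers, and 39 and 5 without cells of neuron markers (minimum of 2 cells). Correction with the classes as reported, in place of cells selected again on the corrected values, gave 97 and 7. Without the replicate block 122 and 8 were called. The cause of these changes was not tested, beyond the fewer means or genes in the fit. The test of the difference from otic cells called 0 as reported, 7 with no filter, 2 with plates as a block and 0 to 1 when a class mean was left out. The median difference over all genes was 0.17, 0.34 with a pseudocount of 0.1 and -0.02 adjusted for genes found. The share of high cells was 70.3%, and 45.0% by Mki67. Genes detected per cell (FPKM of at least 1) differed by 756.5 between the class medians, and by 812 with Top2a of at least 5, 615.5 by Mki67, 686.5 with the stricter selection, 576.5 without a source well, 685.5 counting FPKM above 0, and 605 to 674.5 without a replicate. The stricter selection, Fabp7 of at least 7 and the planned fit in cells without a source well were not run for the gene tests, because a class fell under 5 cells in a replicate, and the difference from otic cells could not be fitted on the 4 means.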
